A study of Mus musculus with 12 samples.

Results

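The effect of the carcinogen DMBA on whole back skin of wild-type mice was examined in the 6 wild-type libraries of a bulk RNA sequencing experiment with 12 libraries. These were 3 libraries from UT WT mice, which are WT FVB mice labelled as naive, and 3 from WT DMBA mice, which are WT FVB mice that received 200 ng of DMBA on the skin each week for 6 weeks. Libraries were assigned by their titles, because the treatment field of the WT DMBA libraries reads naive. The other 6 libraries came from Tcrb-/- mice, which lack αβ T cells, treated with DMBA with or without prior transfer of WT Tregs, and they entered the estimate of the spread and the filter on low reads, but not the contrast. The ages are not given in the labels, and no vehicle-treated group was analysed here. The methods describe hair clipping before topical treatment and do not say whether UT WT mice were clipped. Whether the replicates came from separate mice is not stated, and p values therefore cover only the variation among these libraries.

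DMBA is a polycyclic aromatic hydrocarbon that cytochrome P450 enzymes of the skin convert into a reactive epoxide. The reactive form binds DNA and leaves bulky adducts, which can be fixed as mutations, and a single application is the classical initiating step of chemical skin carcinogenesis in mice. Whole back skin holds epidermis, hair follicles, sebaceous glands, dermal fibroblasts, vessels, fat, muscle and resident immune cells. A level in bulk RNA therefore sums over all of them, and more cells of a type cannot be told apart from more RNA per cell.

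For each of 85565 transcripts of the FVB/NJ transcriptome, the deposited values were an estimated number of reads and TPM, a relative abundance per unit of length that is scaled to a fixed total per library. Total estimated reads were 21687192, 31701620 and 22020328 in UT WT and 18179731, 17312566 and 22111027 in WT DMBA. Between 38277 and 44718 transcripts were above 0 in a library. The files do not pair these identifiers with genes, so the back skin label could not be checked against marker genes, only 4 transcripts are named, and no gene is. Of the transcripts above 0, 79.0% to 82.0% in a library had an estimate that was not a whole number (tolerance 0.01), which shows that reads were divided among transcripts that share sequence. The values of single transcripts are uncertain for that reason, and reads were also summed over fixed blocks of 10 consecutive identifier numbers.

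At the level of single transcripts, DMBA raised 88 and lowered 38 of the 54539 tested, which is 0.231% in either direction, 0.161% higher and 0.0697% lower (edgeR's quasi-likelihood test, adjusted p under 0.01 and a fold change above 2). A called transcript was one that passed both thresholds. In all 126 the 3 WT DMBA libraries lay wholly above or wholly below the 3 UT WT libraries in TPM, as did 19.0% of all transcripts tested. The transcripts that rose had a median log2 fold change of 3.14 and those that fell a median of −1.67. Of those that rose, 16 were at 0 in all 3 UT WT libraries, and of those that fell, 1 was at 0 in all 3 WT DMBA libraries. The rising transcripts had a median length of 2185 nt and a median mean TPM over the 6 libraries of 13.2. The falling ones were 3294 nt long at the median, with a median mean TPM of 30.8. The count fell when any 1 library was omitted. Omitting UT WT replicate 1, 2 or 3 left 34, 12 or 43 calls, and omitting WT DMBA replicate 1, 2 or 3 left 62, 23 or 26, of which the last were split evenly between 13 higher and 13 lower. With limma on log2(TPM + 1), 102 were higher and 93 lower. DESeq2, which the study used on counts summed to genes, called 1235 at the same thresholds, with 861 higher and 374 lower.

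Among the called transcripts, 17 had a mean of at least 100 TPM over the 6 libraries, 9 that rose and 8 that fell. The rises spanned log2 fold changes from 1.54 to 9.50 and the falls from −1.08 to −8.40. One transcript of 2261 nt rose from 10.7, 13.2 and 24.8 TPM in UT WT to a narrow range of 208 to 220 TPM in WT DMBA (log2 fold change 3.82, SE 0.394, edgeR adjusted p = 0.0027). Another, of 2613 nt, rose from 1.92, 2.32 and 1.35 TPM to 319, 128 and 157 TPM (log2 fold change 6.78, SE 0.846, edgeR adjusted p = 0.00625). A transcript of 918 nt had the smallest of these rises and one of the smallest errors, from 186, 189 and 163 TPM to 594, 465 and 447 TPM (log2 fold change 1.54, SE 0.101, edgeR adjusted p = 0.000368). On the falling side, a transcript of 1207 nt was at 298, 409 and 213 TPM in UT WT and at 29.7, 22.8 and 57.3 TPM in WT DMBA (log2 fold change −3.01, SE 0.359, edgeR adjusted p = 0.00512). Of these 17, 6 of the 8 falls were smaller than 2 and 7 of the 9 rises larger than 3 on the log2 scale. Those 7 rises were at 29.6 TPM or less in each UT WT library, and reached the mean of 100 TPM only through WT DMBA. The largest fall was at 2.34 TPM or less in each WT DMBA library, and reached it only through UT WT. The sizes therefore depend in part on the choice by mean TPM. These examples were chosen after their values were seen.

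**Figure D1:**
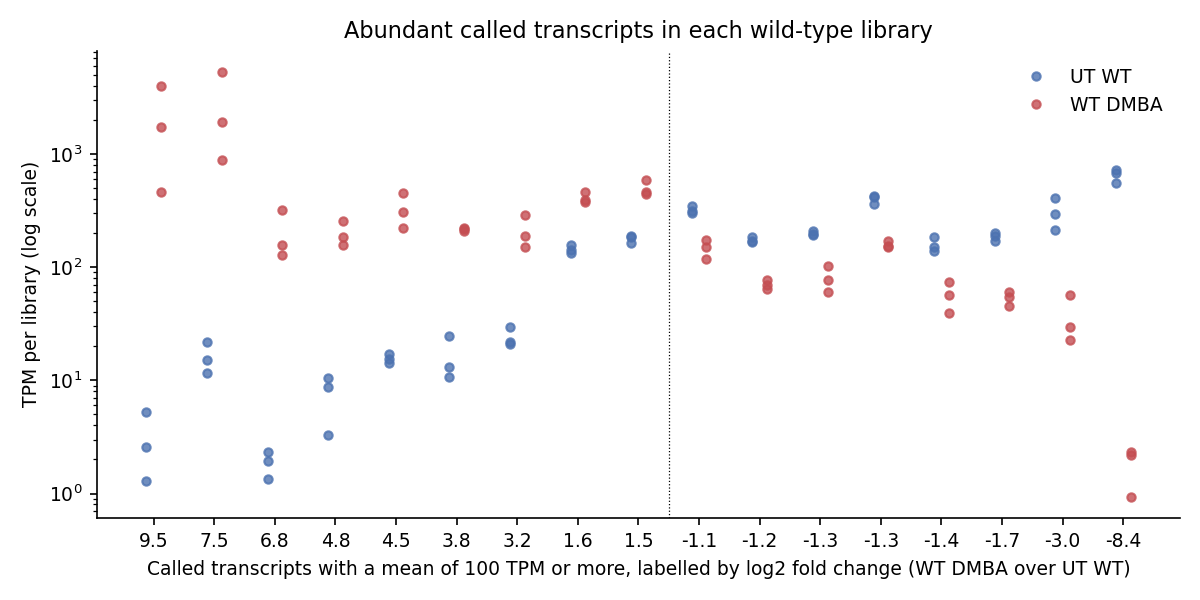
Each column is 1 of the 17 called transcripts with a mean of at least 100 TPM, labelled on the x axis by its log2 fold change of WT DMBA over UT WT, and each point is the TPM of 1 library on a log scale. The 9 transcripts left of the dotted line rose and the 8 right of it fell, and in every column the 3 UT WT points and the 3 WT DMBA points stand apart.

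The rising transcript with the largest fold change among those with at least 10 reads in 1 library of each group was MGP_FVBNJ_T0043995.1, of 388 nt. It stood at 5.22, 2.57 and 1.28 TPM in UT WT, from 17, 12 and 4 reads, and at 463, 3961 and 1741 TPM in WT DMBA, from 1226, 10686 and 5632 reads. All 3 treated libraries were far above all untreated ones, and they also differed widely among themselves. The log2 fold change was 9.50 (SE 1.27, edgeR adjusted p = 0.00808), a 680-fold difference of mean TPM. A transcript of 412 nt, 3 identifier numbers further on, rose with it from 16.2 ± 5.20 to 2703 ± 2318 TPM (SD, n = 3; log2 fold change 7.49, edgeR adjusted p = 0.0096), and these were the only called transcripts with a mean of 1000 TPM or more. The block that holds both rose by 7.52 on the log2 scale (SE 1.05, edgeR adjusted p = 0.00141), the largest rise of any called block. Outside the wild-type comparison, MGP_FVBNJ_T0043995.1 was at 3357, 8119 and 5978 TPM in DMBA-treated Tcrb-/- skin and at 4267, 484 and 5385 TPM in Tcrb-/- + Treg skin. Its call was lost without any single UT WT library and without WT DMBA replicate 2 or 3, with edgeR adjusted p between 0.0208 and 0.0474 and log2 fold changes of 8.49 to 10.12, and with only the 6 wild-type libraries in the fit, at an edgeR adjusted p of 0.0198. It was also lost with the replicate number added to the fit (edgeR adjusted p = 0.0341), and held in 10 of 17 alternative settings.

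MGP_FVBNJ_T0061841.1, of 925 nt, was the called transcript of highest TPM in the longest run of rising identifiers that held a call. It was at 17.0, 14.2 and 15.6 TPM in UT WT and at 221, 454 and 309 TPM in WT DMBA, and the groups did not overlap. Mean TPM was 21.0-fold higher in WT DMBA (log2 fold change 4.48, SE 0.552, edgeR adjusted p = 0.00595). The other DMBA-treated groups were at 264, 430 and 462 TPM in Tcrb-/- and at 245, 85.4 and 440 TPM in Tcrb-/- + Treg skin. This transcript held 9.67% of the TPM of its block, and the block itself did not pass (log2 fold change 0.88, edgeR adjusted p = 0.192). Without UT WT replicate 1, 2 or 3, or WT DMBA replicate 2 or 3, the call was lost, at edgeR adjusted p of 0.0191 to 0.0347. It was also lost with the replicate number added to the fit (edgeR adjusted p = 0.0226), and held in 11 of 17 alternative settings.

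On the falling side, the largest fold change with at least 10 reads in 1 library of each group was that of MGP_FVBNJ_T0051580.1, of 3439 nt. It stood at 123, 159 and 153 TPM in UT WT and at 0.401, 0.531 and 0.776 TPM in WT DMBA, which is 254-fold lower (log2 fold change −7.90, SE 0.445, edgeR adjusted p = 0.000154). This call held in all 17 alternative settings. The 6 Tcrb-/- libraries, all treated with DMBA, were likewise low, at 0.578 to 1.42 TPM without and 1.16 to 1.79 TPM with Treg transfer. A transcript of 878 nt, 4 identifier numbers before it, moved the other way, from 38.9 ± 1.89 to 74.0 ± 0.499 TPM (SD, n = 3). Its log2 fold change of 0.998 was just under the fold threshold (edgeR adjusted p = 0.00923). On the TPM scale the block of both went from 175, 207 and 206 to 86.1, 82.9 and 88.7. In reads, which weigh long transcripts more, it fell by 2.68 on the log2 scale (edgeR adjusted p = 9.63e-07).

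MGP_FVBNJ_T0082700.1, of 413 nt, was the most abundant called falling transcript not already named. It was at 557, 674 and 726 TPM in UT WT and at 2.21, 0.939 and 2.34 TPM in WT DMBA, from 2119, 3734 and 2711 reads against 7, 3 and 9. The difference was 356-fold (log2 fold change −8.40, SE 0.768, edgeR adjusted p = 0.00173). Its estimates were whole numbers in all 12 libraries, and it held 99.4% of the TPM of its block, which fell by 5.32 on the log2 scale (edgeR adjusted p = 9.63e-07), the largest fall of any called block. In Tcrb-/- skin it was at 0.465, 0.935 and 0 TPM, and in Tcrb-/- + Treg skin at 0.961, 2.73 and 0 TPM. The transcript call was lost without UT WT replicate 2 or without WT DMBA replicate 2 or 3, at edgeR adjusted p of 0.0112 to 0.0128. It was also lost with the replicate number added to the fit (edgeR adjusted p = 0.0105), and held in 14 of 18 alternative settings.

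Effect size and the spread between replicates both varied with abundance. Transcripts were split by their mean TPM over the 6 wild-type libraries. A transcript with a large change takes its class mainly from the group in which it is high. From the class under 0.1 TPM to that of 1000 TPM and over, the median size of the log2 fold change fell from 1.42 over 1.27, 0.52, 0.23 and 0.20 to 0.15. The spread between replicates was highest at 0.1 to 1 TPM, with a median SD of 1.81 on the log2 scale against 1.25 under 0.1 TPM. Of the transcripts tested, 1563 had no read in any of the 6 wild-type libraries and could show no difference here. They count among the 6069 transcripts of the class under 0.1 TPM and lower its medians and shares. It was 0.735 at 1 to 10 TPM, 0.174 at 10 to 100 TPM, 0.123 at 100 to 1000 TPM and 0.130 at 1000 TPM and over. On the scale of the SD, the median size of the difference was 0.825 under 0.1 TPM, 1.20 at 0.1 to 1 TPM and 0.629 at 1 to 10 TPM. In each of these classes the median SD was larger than that, and from 10 TPM upward it was smaller. At 0.1 to 1 TPM the values rested on a median of 5.40 reads per library. Under 0.1 TPM the median was 1 read. With a ratio of mean TPM after adding 0.1 to each mean, the median size under 0.1 TPM was 0.39 in place of 1.42.

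The share of called transcripts rose with abundance. Under 0.1 TPM, 0 of 6069 transcripts passed by edgeR, while 265 were higher and 35 lower at an unadjusted p under 0.05, and DESeq2 picked out 12. At 0.1 to 1 TPM 9 of 18567 were called, at 1 to 10 TPM 42 of 18809 and at 10 to 100 TPM 58 of 9747, which is 0.595%. At 100 to 1000 TPM it was 1.25% of 1203 transcripts, with 7 higher and 8 lower, and at 1000 TPM and over 2 of 144, both higher. These 2 were at 21.8 TPM or less in each UT WT library, so they were in that class only through WT DMBA. No transcript of that class passed as lower by edgeR, but 13 were lower at an unadjusted p under 0.05, and 3 were lower by DESeq2. The smallest size that was called was 4.26 on the log2 scale at 0.1 to 1 TPM, 1.13 at 1 to 10 TPM, 1.01 at 10 to 100 TPM, 1.08 at 100 to 1000 TPM and 7.49 at 1000 TPM and over.

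The balance between rises and falls differed between the classes. Of transcripts with an unadjusted p under 0.05, 88.3% were higher in WT DMBA under 0.1 TPM, 74.1% at 0.1 to 1 TPM, 60.4% at 1 to 10 TPM, 47.9% at 10 to 100 TPM, 54.8% at 100 to 1000 TPM and 55.2% at 1000 TPM and over. Over all transcripts tested this share was 60.3%. Transcripts were kept by reads summed over 12 libraries, of which only 3 were untreated. Low transcripts present only under DMBA could therefore pass this filter more easily than those present only in UT WT. Its part in the excess of rises at low TPM was not tested. The balance was also counted in transcripts whose groups did not overlap. Under 0.1 TPM 4.19% were wholly higher and 0.906% wholly lower in WT DMBA, whereas at 10 to 100 TPM 13.7% were wholly higher and 22.9% wholly lower. Of the transcripts of 1000 TPM and over, 20.1% were wholly higher and 36.1% wholly lower. Most of these differences were below the fold threshold, since 7.64% of this class differed by more than 1 on the log2 scale in either direction.

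**Figure D2:**
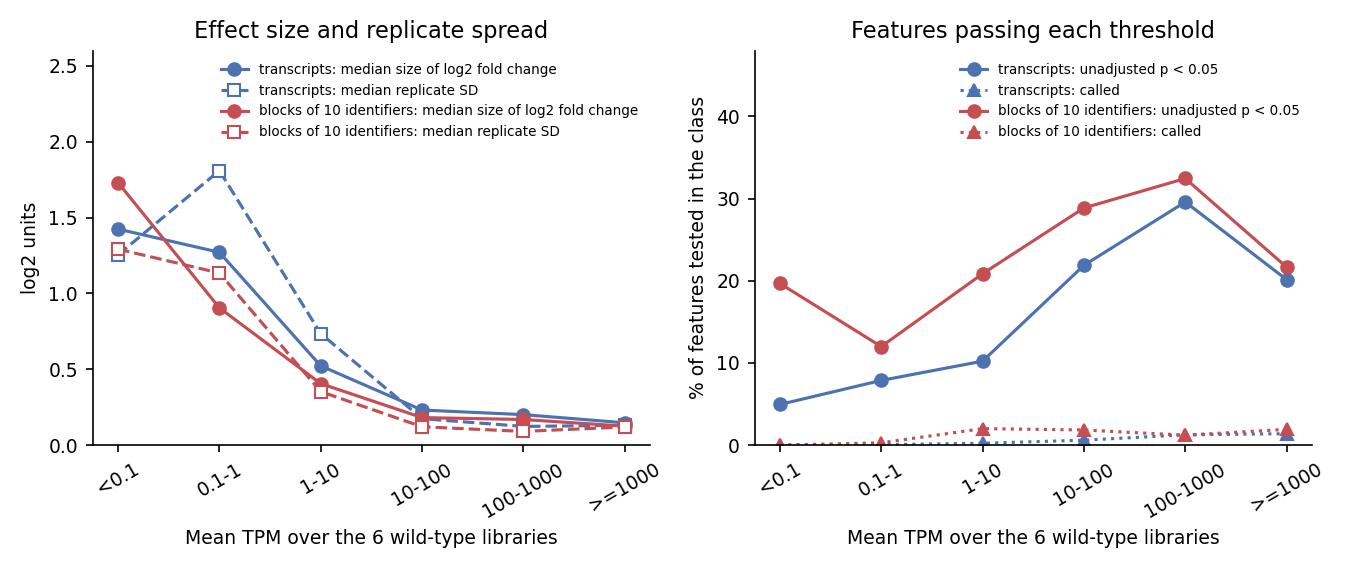
Left, the median size of the log2 fold change (filled circles) and the median SD between replicates (open squares) in 6 classes of mean TPM, for transcripts in blue and for blocks of 10 identifiers in red. Right, the percentage of each class with an unadjusted p under 0.05 (circles) and the percentage called (triangles), where transcripts rise from 4.94% to 29.6% at 100 to 1000 TPM and lie at 20.1% in the highest class.

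The most abundant transcripts were then taken by rank. The median size of the log2 fold change was 0.26 in the 20, 0.15 in the 200 and 0.20 in the 2000 most abundant. Over all transcripts tested it was 0.61. Of the 20 most abundant, 0 passed by edgeR and 1 by DESeq2, and at an unadjusted p under 0.05 there were 6 higher and 1 lower. Of the 200 most abundant 2 were called, both higher, and of the 2000 most abundant 13 rose and 13 fell. The most abundant transcript, of 2103 nt, was at 9762, 9789 and 8360 TPM in UT WT and at 13488, 20818 and 17896 TPM in WT DMBA. Its groups did not overlap, but its log2 fold change of 0.99 (SE 0.477) did not pass, with an edgeR adjusted p of 0.467. Together the 20 most abundant transcripts took 9.66% ± 0.422 of the TPM in UT WT and 11.7% ± 0.932 in WT DMBA (SD, n = 3), without overlap. By an exact two-sided permutation test p was 0.1 for this share, which is the lowest value possible with 3 libraries a group, and 0.533 after Benjamini-Hochberg adjustment over 16 such library measures. The number of transcripts above 0 was 40815 ± 2585 in UT WT and 43836 ± 1270 in WT DMBA (SD, n = 3), with overlap (exact permutation p = 0.2).

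Transcript length moved with the same measures and with the number of reads. Median reads per library were 3.61 under 500 nt and 186 at 4000 nt and over. The share with an unadjusted p under 0.05 was 5.98% in transcripts under 500 nt and 16.3% in those of 4000 nt and over, while the median SD between replicates fell from 1.53 to 0.437 on the log2 scale. Of those with p under 0.05, 69.1% were higher in WT DMBA under 500 nt and 46.8% at 4000 nt and over. Only 2 transcripts under 500 nt rose and 1 fell, and all 3 are described above, namely MGP_FVBNJ_T0043995.1, its neighbour of 412 nt and MGP_FVBNJ_T0082700.1. Among the 3637 tested transcripts with whole-number estimates in all 12 libraries, 6 rose and 5 fell. When these were tested alone, 23 rose and 24 fell.

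Reads were next summed over the blocks of 10 identifier numbers. Of 8327 blocks tested, 138 were called, which is 1.66%, with 88 higher (1.06%) and 50 lower (0.6%). The median SD between replicates was 0.135 on the log2 scale for blocks and 0.962 for transcripts, and the common dispersion, the squared coefficient of variation beyond counting error, was 0.0393 for blocks and 0.818 for transcripts. An unadjusted p under 0.05 was reached by 27.3% of blocks and by 11.4% of transcripts. Of these blocks 53.9% were higher. At an adjusted p under 0.05 without a fold threshold, 1039 blocks were called, 543 of them higher. Called blocks moved by a median of 1.49 upward and 1.42 downward in size on the log2 scale. Omitting UT WT replicate 1, 2 or 3 left 65, 71 or 89 calls and omitting WT DMBA replicate 2 or 3 left 65 or 82, of which 61 to 82 were shared with the full set.

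Most called blocks were not seen at the level of transcripts. Of the 138, 100 held no called transcript, 67 of those higher and 33 of those lower. The most abundant called block was at 5630, 4276 and 5943 TPM in UT WT and at 1880, 1963 and 2047 TPM in WT DMBA (log2 fold change −1.35, SE 0.129, edgeR adjusted p = 0.000253). It held no called transcript, although 1 transcript made up 93.5% of its TPM. A block at 2587, 2257 and 2259 TPM fell to 1068, 751 and 1064 TPM (log2 fold change −1.23, SE 0.21, edgeR adjusted p = 0.00407), again with no called transcript. In the opposite direction, a block without a called transcript rose from 202, 227 and 299 TPM to 1444, 1138 and 939 TPM (log2 fold change 2.08, SE 0.369, edgeR adjusted p = 0.00485). In each of these blocks the 6 libraries split by treatment without overlap, as in 136 of the 138 called blocks. The thresholds for a call favour such a split, and its share among all blocks tested was not counted. It is therefore no separate support for the calls. Of the called blocks with a mean of at least 100 TPM, 14 were lower and 9 higher.

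Conversely, many called transcripts lay in blocks that did not move. Of the 38 falling transcripts, 17 were in a block called lower and another 16 in a block that was lower at an unadjusted p under 0.05. Of the 88 rising transcripts, 23 were in a block called higher, 31 in one that was higher at an unadjusted p under 0.05, 22 in a block that was higher at a larger p, and 12 in a block whose sum was lower. Rising transcripts made up a median of 14.6% of their block's TPM and falling ones 48.5%. In 4 of the 88 and 7 of the 38, the same block held a transcript with an unadjusted p under 0.05 that moved at least 2-fold the other way. Over all transcripts tested, 4.61% moved up and 2.06% moved down in this way. The share of all blocks with such a member was not counted, so these counts are not read as a trait of called transcripts. As the identifiers are not paired with genes, a block may hold transcripts of several genes.

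**Figure D3:**
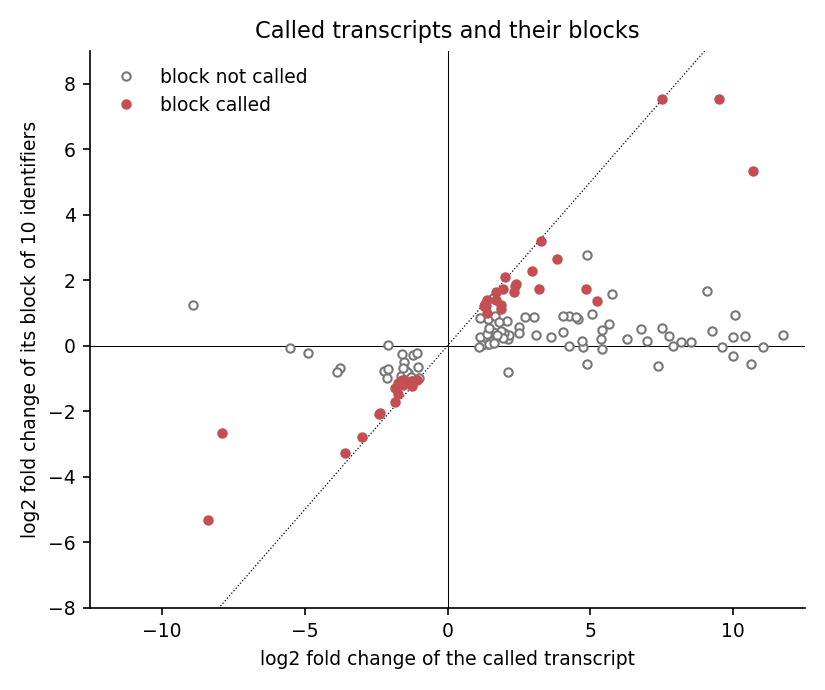
Each of the 126 called transcripts is placed by its log2 fold change (x axis) and by that of the block of 10 identifiers that holds it (y axis). Red points lie in called blocks and open points in blocks that were not called, and the dotted line marks equal change. Of the 29 rising transcripts with a log2 fold change above 5, 23 lie within 1 of 0 on the y axis. Most blocks lie there, since 7.83% of all blocks tested changed by more than 1.

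Changes were then followed along the identifier numbers. A transcript was taken as moved where its log2 fold change was at least 1 in size and its unadjusted p under 0.05, which 2515 transcripts met upward (4.61% of those tested) and 1122 downward (2.06%). The next tested transcript after one moved up was also moved up in 13.0% of cases and moved down in 1.85%. After a transcript moved down, the next was moved down in 6.11% and up in 3.47%. Both shares in the same direction were above those of all transcripts. Across all 53207 neighbouring pairs the log2 fold changes had a Pearson r of 0.013, and across the 9886 pairs with a mean of at least 50 reads r was 0.026, with each library shared by all pairs.

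Runs were defined as at least 3 such neighbours, each at most 5 numbers after the one before. There were 48 runs of rising transcripts with 190 members and 8 runs of falling ones with 24 members. All 8 falling runs had 3 members and none held a called transcript. The rising runs had 29 of 3 members, 15 of 4 and 4 of 5 or more, and 8 of them held 10 called transcripts in all. Whole-number estimates in all 12 libraries were found for 11 of the 190 rising members and 6 of the 24 falling ones. Over all transcripts tested this share was 6.67%. The other members had reads divided among transcripts that share sequence. Whether neighbours in a run shared reads was not tested. As runs were chosen by log2 fold change and p, their sums are given as a description. Summed over its members, a rising run was higher in WT DMBA by 2.14-fold to 248-fold (median 4.75-fold), and a falling run was lower by 2.32-fold to 5.88-fold (median 3.94-fold). In 12 of the rising runs UT WT was under 1 TPM. WT DMBA replicate 2 had the highest sum of the 3 treated libraries in 29 of the 48 rising runs, replicate 1 in 14 and replicate 3 in 5. Without WT DMBA replicate 2, 28 runs were found in place of 56, and the longest had 8 members.

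The longest run had 24 rising members within 26 identifier numbers, of 487 to 1265 nt. Whole-number estimates in all 12 libraries were found for 0 of its 24 members. Its members were nearly silent in UT WT, where their summed TPM was 0.641, 1.23 and 0.267. In WT DMBA the sum was 32.7, 196 and 8.65 TPM, so that every treated library was above every untreated one, while the treated libraries differed widely among themselves, with replicate 2 the highest. Median log2 fold change of the members was 6.23, and no member averaged above 7.0 TPM over the 6 libraries. By edgeR 0 of the 24 were called, all 24 having entered the run with an unadjusted p under 0.05, and DESeq2 called 6. This run was 1 of 5 rising runs, with 38 members in all, that lay within 88 identifier numbers. Among them was a run of 4 whose sum went from 3.24, 1.16 and 0.557 to 104, 184 and 36.2 TPM. A run of 5 elsewhere followed the same order of the treated libraries, from 2.30, 0.649 and 0.797 to 24.2, 134 and 11.8 TPM. Of the 48 rising runs, 15 with 82 members lay within 100 numbers of another rising run, in 5 groups.

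The UT WT sums of falling runs averaged 14.0 to 228 TPM, within the range of 0.0585 to 1339 TPM over the rising runs. The largest went from 206, 231 and 246 to 52.3, 44.4 and 40.2 TPM, a 4.99-fold fall with little spread in either group. Another went from 123, 101 and 105 to 31.0, 22.7 and 42.3 TPM. A pair of falling runs lay within 7 identifier numbers, and the estimates of their 6 members were whole numbers in all libraries. The first went from 22.6, 29.0 and 12.9 to 8.99, 2.13 and 5.74 TPM and the second from 60.1, 72.6 and 61.3 to 19.9, 6.13 and 13.7 TPM.

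**Figure D4:**
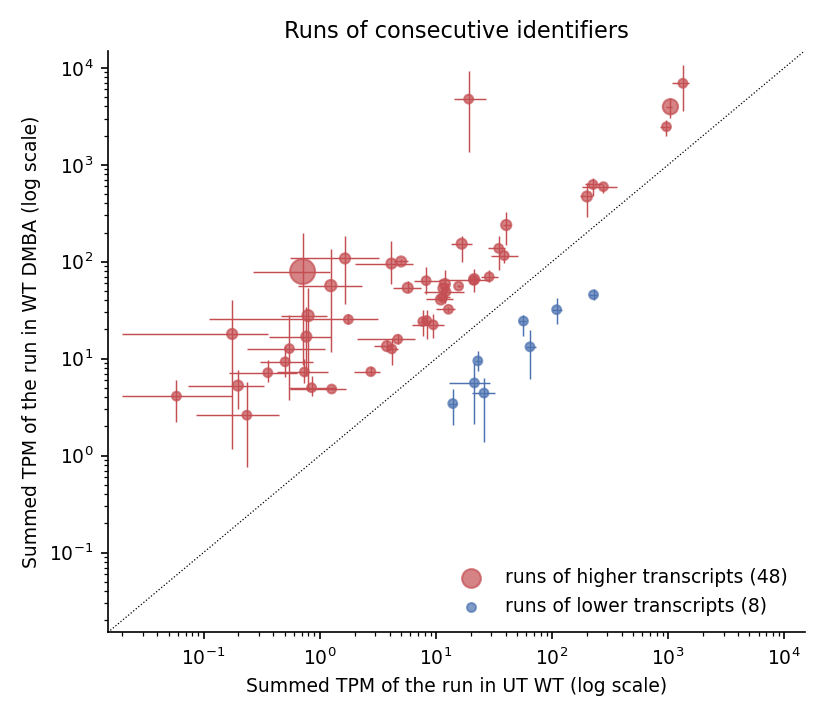
Each point is a run of at least 3 consecutive identifiers, placed by its summed TPM in UT WT (x axis) and WT DMBA (y axis), both on log scales and as the mean of 3 libraries, with lines from the lowest to the highest library and a point area that grows with the number of members. The 48 rising runs in red lie above the dotted line of equality, the run of 24 members being the largest point, and the 8 falling runs in blue lie below it. Library sums of 0 are drawn at 0.02.

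The longest run that held called transcripts had 9 members within 10 identifier numbers, among them MGP_FVBNJ_T0061841.1, and unlike the run of 24 it was abundant in both groups. Its sum was 1090, 1090 and 959 TPM in UT WT and 3043, 4900 and 3962 TPM in WT DMBA, a 3.79-fold rise. The members were 647 to 925 nt long and had log2 fold changes of 1.01 to 4.48. Of the 9 members, 0 had whole-number estimates in all 12 libraries. Next to MGP_FVBNJ_T0061841.1, the transcript 4 numbers further on, of 686 nt, was also called, from 20.2 ± 2.74 to 156 ± 26.7 TPM (SD, n = 3; edgeR adjusted p = 0.00809). The most abundant member, 5 numbers before, rose from 544 ± 46.0 to 1047 ± 185 TPM (SD, n = 3) and was not called (edgeR adjusted p = 0.331).

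The identifiers around this run were then examined. Within 50 numbers of MGP_FVBNJ_T0061841.1 on either side, a window chosen after the runs were seen, 88 transcripts were tested and 63 had a positive and 23 a negative log2 fold change. Of these, 32 met the criterion for a move up, among them the 9 members of the run that by choice lies at the centre, and 1 met that for a move down. Without those 9, 23 of 79 met it, which is 29.1%, beside 4.61% of all transcripts tested. There were 4 rising runs with 21 members in this window. A run of 3 ending 7 numbers before went from 1036, 1021 and 845 to 1985, 2916 and 2503 TPM. A run of 4 starting 31 numbers before was much lower, at 6.40, 4.01 and 2.03 TPM in UT WT and 65.0, 164 and 58.6 TPM in WT DMBA. A run of 5 starting 9 numbers after was near 0 in UT WT, at 0.466, 1.15 and 0.766 TPM, and reached 4.63, 53.2 and 25.6 TPM. The median log2 fold change was 1.49 in the run of 3, 2.54 in the run of 9, 4.69 in the run of 4 and 6.81 in the run of 5, so the runs of lowest TPM had the largest changes. The whole window summed to 21333, 20690 and 18245 TPM in UT WT and 25511, 37134 and 32287 TPM in WT DMBA, without overlap.

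**Figure D5:**
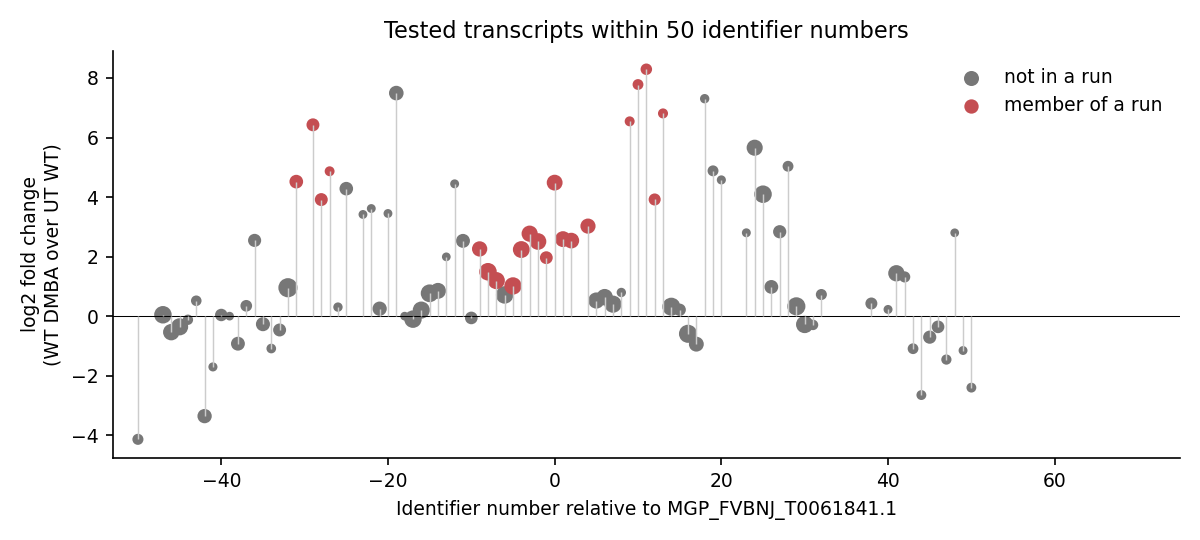
Tested transcripts within 50 identifier numbers of MGP_FVBNJ_T0061841.1, with the difference in identifier number on the x axis and the log2 fold change of WT DMBA over UT WT on the y axis. Red points are members of the 4 rising runs, grey points are not in a run, and point area grows with mean TPM. Of the 88 transcripts 63 lie above 0, and the 32 that met the criterion for a move up lie between 36 numbers before and 41 after.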

How the data were processed

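Per the labels and the study's methods, the authors prepared polyA libraries from whole skin with a TruSeq kit, called bases with CASAVA 1.8.4, checked reads with FastQC 0.12.1 and MultiQC 1.11, and quantified them with Salmon 1.5.2 against the FVB/NJ cDNA. The deposited estimated counts are not normalized, and the deposited TPM values are scaled by length and library. The study's later sums to genes were not used here. Members, lists and rules were chosen with earlier results of these data known.

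After rounding of the counts, transcripts with fewer than 10 reads in total over 12 libraries were dropped, and 1 fit of all 4 groups was made with edgeR 4.0.16 in R 4.3.3 (TMM, quasi-likelihood F test in its earlier form, Benjamini-Hochberg adjustment). A call needed an adjusted p under 0.01 and a fold change above 2. Standard errors were derived from the log2 fold change and F. The tests were checked on simulated data. Blocks were fixed by identifier number alone. Named transcripts are, in each direction, the called, non-overlapping one of largest fold change with 10 reads in 1 library of each group, and the called one of highest TPM in the longest run with a call or, without such a run, of highest TPM among the rest. Single library measures were compared by exact two-sided permutation tests. Replicates differed by more than sampling noise, with a chi-square per transcript of 21.8 to 36.8, so none were merged. Alternatives were DESeq2 1.42.0, limma 3.58.1, other filters, scalings and thresholds, a fit of the 6 wild-type libraries, the replicate block and omission of each library. Figures were drawn with matplotlib 3.10.9. Sequences, coordinates and gene lists were not used, as no table at hand pairs these identifiers with genes.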

Additional observations from a re-analysis of the deposited data

How the results depend on the processing

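In place of 126 transcripts, 1235 were called by DESeq2, with all 126 among them, 195 by limma on log2(TPM + 1), 203 by the newer quasi-likelihood form of edgeR, chosen after seeing the data, 69 with only the 6 wild-type libraries in the fit and 47 with whole-number transcripts only. At an adjusted p under 0.05, 624 passed without a fold threshold and 413 above 2-fold. Leaving out each library gave 12 to 62. In place of 138 blocks, DESeq2 called 256, the fit of 6 libraries 211, blocks of 25 numbers 36 and blocks of 5 numbers 213, and leaving out each library gave 65 to 92. The number of runs, 56, was 734 without the p criterion, 283 with runs of 2 or more, and 28 to 47 when each library was left out. More transcripts rose than fell in every setting except 2, whole-number transcripts only, with 23 against 24, and without WT DMBA replicate 3, with 13 each. Class medians of effect size ranged from 1.22 to 1.78 under 0.1 TPM and from 0.147 to 0.164 at 1000 TPM and over when each library was left out, and fell with abundance from 0.1 TPM upward in each of these settings. The 4 named transcripts kept their direction in all settings run. With the replicate block, 18 transcripts (11 higher) and 107 blocks were called, 17 and 102 of them among the main calls. Deviations of same-numbered UT WT and WT DMBA libraries correlated at −0.041, −0.027 and −0.009, and none correlated best with its own number. With 3 libraries a group, these values cannot show whether libraries of the same number shared a batch. The effect of DMBA could be tested only between 3 and 3 libraries, and transcripts under 1 TPM rested on few reads.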
